A study of Mus musculus with 7 samples.

Results

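The somatostatin receptors are a family of 5 genes, Sstr1 to Sstr5, whose mRNA was counted in the hippocampus of mice treated with ONX-0914, an inhibitor of the immunoproteasome. They were found by matching the Ensembl identifiers of all 7 count tables to these symbols, which gave 5 of 55416 identifiers. The family was chosen from measured values, because Sstr3 was low in both ONX-0914 libraries. The ONX-0914 levels of Sstr3 are therefore described here and were not tested.

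Somatostatin and the related peptide cortistatin are released by inhibitory interneurons. Their receptors couple to inhibitory G proteins, which lower cyclic AMP, open inwardly rectifying potassium channels and close calcium channels, and so dampen neuronal firing and transmitter release. In neurons, SSTR3 is known for its place in the membrane of the primary cilium, whereas SSTR2 and SSTR4 are known from dendrites and cell bodies.

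All libraries came from hippocampi of male, age-matched, outbred CD1 mice. The control group was untreated (3 libraries, replicates 1 to 3). The DMSO group (2 libraries, replicates 2 and 3) received the solvent and the ONX-0914 group (2 libraries, replicates 1 and 2) received 10 mg/kg of ONX-0914, each by intraperitoneal injection 2 times per week over 2 months. The treated animals thus differed from control in the injections as well as in the agent, and the DMSO group shared the injections and the solvent. It is not stated which animals, or how many, gave each library, so p-values measure the spread between these libraries, which may in part be technical.

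Both ONX-0914 libraries stood apart from the rest, each in its own way. Gene counts summed to between 2842675 and 3877006 in 6 libraries and to 13782270 in ONX-0914 replicate 2. In ONX-0914 replicate 1, the summed level of 8 thalamic marker genes was 9.69 times and that of 9 striatal marker genes 5.28 times the control mean, while the dentate gyrus and CA1 markers were at 0.296 and 0.355 times. Shox2 and Gbx2, which are thalamic genes with at most 3 counts in every control library, reached 90.1 and 6.29 CPM (counts per 1000000 on genes, TMM-scaled) there. In ONX-0914 replicate 2, the striatal and thalamic sums were at 0.798 and 1.24 times the control mean, the neocortical sum was at 1.46 times and the share of mitochondrially encoded counts was 3.71%, against 0.818% to 1.59% elsewhere. Fold changes below are therefore given also without each of these libraries for most of the named genes. The part of tissue composition in the receptor levels was not tested, and in bulk tissue fewer cells of a type and less mRNA per cell cannot be told apart.

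Short stretches upstream of the receptor genes and of somatostatin are shown first, because the cyclic AMP response element (CRE), a site bound by CREB family factors, is the known target of the cascade that these receptors damp. The RefSeq promoter table of build GRCm38.p6 held Sstr2, Sstr3 (with 2 start sites), Sstr4, Sst and Cort, and Sstr1 and Sstr5 were without an entry. The full CRE, TGACGTCA, reads the same on both strands and was found in the 250 bases before the start of Sstr2 and of Sst. Its 5-base half-site, TGACG, searched on both strands, was found alone before one start of Sstr3 and before Cort, and not before Sstr4. In the same window, 1.55% of 32851 promoters held the full element and 17.8% held the half-site, where each full element also counts as a half-site. In the lines below capitals mark the element, and the strand is that of the gene.
Sst, chr16:23890875-23890902, minus strand, element from 48 bases before the start: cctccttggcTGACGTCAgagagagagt
Sstr2, chr11:113619259-113619286, plus strand, element from 58 bases before the start: caagctgccgTGACGTCAcgggcggggg
Sstr3, chr15:78544346-78544364, minus strand, half-site from 9 bases before the start: agatggggggTGACGtacc
The 8 letters shared by Sst and Sstr2 follow from the search. The element began 48 and 58 bases before their starts, within different flanks. A match in the letters is a description and says nothing of binding in these animals.

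To learn which receptors the hippocampus expressed, levels were first compared within the control libraries. Between genes, levels are given as CPM per kilobase of exon length, since a longer transcript collects more reads. On this scale Sstr3 was at 13.8 ± 0.118 and Sstr4 at 13.7 ± 0.140 (SD, n = 3), and their ranges over the libraries overlapped. Sstr1 and Sstr2 followed at 3.01 ± 0.561 and 2.91 ± 0.513 and did not differ beyond their spread either. Sstr5 was last at 0.0767 ± 0.0682. The order of the leading pair depends on the length used, because the exons of Sstr3 span 4320 bases and those of Sstr4 span 1424, while their coding parts are of 1284 and 1155 bases. Per kilobase of coding length, Sstr3 was at 46.3 ± 0.398 and Sstr4 at 16.9 ± 0.173, so that the first clearly exceeded the second. Levels of single genes below are in CPM without division by length.

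Sstr3, the ciliary receptor, had 168, 219 and 214 reads in control replicates 1 to 3, 219 and 148 reads in DMSO replicates 2 and 3, and 73 and 270 reads in ONX-0914 replicates 1 and 2. In CPM, the levels were 59.9, 59.7 and 58.9 in control, 58.8 and 52.8 in DMSO, and 18.4 and 17.8 in ONX-0914. Both ONX-0914 libraries lay below every other library, and the control libraries lay close together. The exact 95% intervals of the counts, which cover counting error only, ran from 14.4 to 23.1 CPM and from 15.8 to 20.1 CPM in the ONX-0914 libraries, while the lowest bound in control was 51.2 CPM. The Log2FC of Sstr3 was −1.72 (SE 0.172) against control and −1.63 (SE 0.183) against DMSO. These values describe the gene for which the family was chosen, and no test is given for them. Leaving out ONX-0914 replicate 1 gave a Log2FC of −1.75 against control, and leaving out replicate 2 gave −1.70. The 2 libraries were at 0.309 and 0.300 times the control mean, and being low in both is the pattern on which the family was chosen. The marker genes above set these libraries apart from each other, and the part of tissue composition in their Sstr3 levels was not tested. Between DMSO and control, which the choice did not use, Sstr3 had a Log2FC of −0.09 (SE 0.162, FDR = 0.9999, edgeR quasi-likelihood test).

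**Figure D1:**
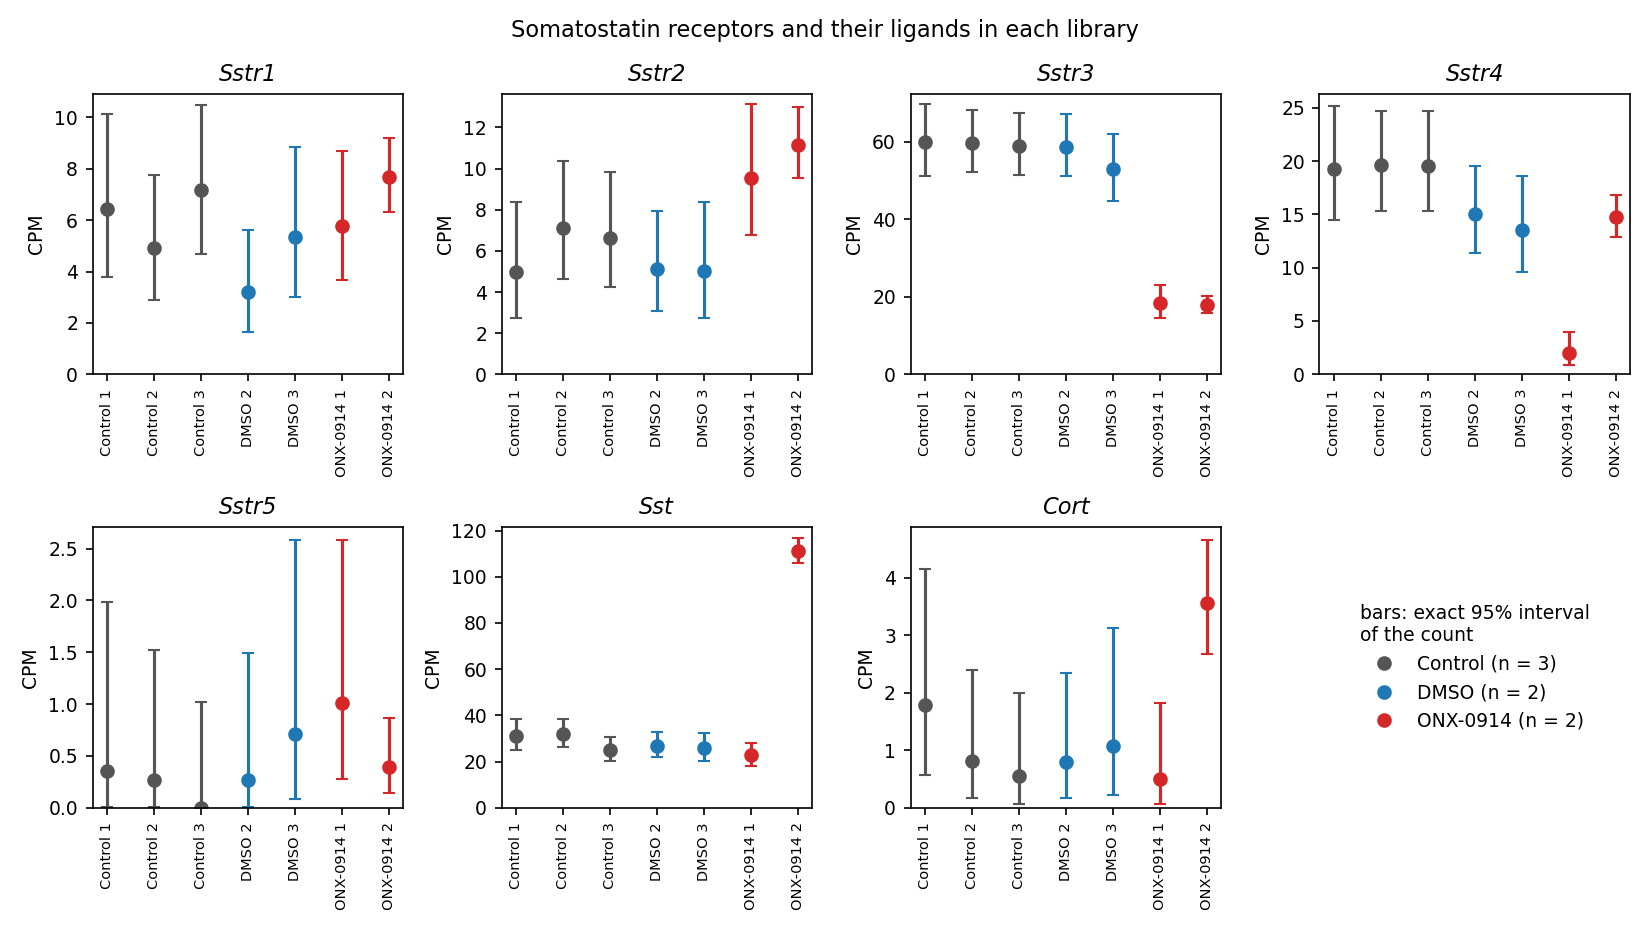
Levels of the 5 somatostatin receptors and of their ligands Sst and Cort in CPM (vertical axis, from 0) in each of the 7 libraries (horizontal axis, coloured by group), with bars for the exact 95% interval of the count. Sstr3 was at 17.8 to 18.4 CPM in ONX-0914 and at 52.8 to 59.9 CPM elsewhere, while the ONX-0914 libraries differed in Sstr4 (2.01 and 14.7 CPM) and in Sst (22.7 and 111 CPM).

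Sstr4, which in the hippocampus is known mainly from CA1 pyramidal cells, did not share this evenness. It had 54, 72 and 71 reads in control, 56 and 38 in DMSO, and 8 and 223 in ONX-0914 replicates 1 and 2, or 19.3, 19.6 and 19.6 CPM, 15.02 and 13.6 CPM, and 2.01 and 14.7 CPM. Every control library exceeded both ONX-0914 libraries. However, replicate 2 lay between the DMSO libraries and was 7.32 times replicate 1. The Log2FC against control was −1.06 (SE 0.558) and did not pass the test (FDR = 0.34, edgeR quasi-likelihood test). Without ONX-0914 replicate 2 it was −3.26 and passed (edgeR, FDR = 2.12e-06), a fit in which the lone library was assumed to vary like the others and 19.0% of all tested genes passed, and without replicate 1 it was −0.41 and did not pass (edgeR, FDR = 0.076). Against DMSO the Log2FC was −0.62 (SE 0.617, FDR = 0.63, edgeR), and it was −2.82 without replicate 2 and 0.03 without replicate 1. The DMSO libraries were at 0.771 and 0.696 times the control mean. Between DMSO and control the Log2FC was −0.44 (SE 0.576, FDR = 0.9999, edgeR). With only the compared groups fitted, its SE was 0.207, with an unadjusted p of 0.046 and an FDR of 0.32 (edgeR). In that fit 1897 of 12688 genes had an unadjusted p below 0.05.

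Sstr2, a receptor with a wide distribution in the brain, was higher in both ONX-0914 libraries. Its counts were 14, 26 and 24 in control, 19 and 14 in DMSO, and 38 and 169 in ONX-0914, which made 4.99, 7.09 and 6.61 CPM, 5.10 and 4.998 CPM, and 9.56 and 11.2 CPM. Both ONX-0914 libraries exceeded all 5 others, although the count interval of ONX-0914 replicate 1 (6.77 to 13.1 CPM) overlapped those of the control libraries. The Log2FC was 0.74 (SE 0.275, FDR = 0.22) against control and 1.05 (SE 0.320, FDR = 0.23) against DMSO by the edgeR quasi-likelihood test, so neither passed. Without the marker-rich ONX-0914 replicate 1 they were 0.81 (FDR = 0.013) and 1.13 (FDR = 0.0053) and passed, in fits where 51.2% and 46.0% of all tested genes passed (edgeR). Without replicate 2, they were 0.59 (FDR = 0.29) and 0.91 (FDR = 0.14). Between DMSO and control the Log2FC was −0.31 (SE 0.324, FDR = 0.9999, edgeR).

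Sstr1, which also serves as an autoreceptor on somatostatin cells in some brain regions, overlapped between the groups. It had 18, 18 and 26 reads in control, 12 and 15 in DMSO, and 23 and 116 in ONX-0914, or 6.42, 4.91 and 7.16 CPM, 3.22 and 5.36 CPM, and 5.79 and 7.67 CPM. The Log2FC of ONX-0914 was 0.17 (SE 0.334, FDR = 0.81) against control and 0.71 (SE 0.396, FDR = 0.41) against DMSO (edgeR quasi-likelihood test). The first was −0.09 without ONX-0914 replicate 2, 0.31 without ONX-0914 replicate 1, 0.01 without control replicate 2 and 0.29 without control replicate 3. The other was 0.35 without DMSO replicate 2, 1.09 without DMSO replicate 3 and 0.47 without ONX-0914 replicate 2, and neither passed in any of these fits. Between DMSO and control the Log2FC was −0.55 (SE 0.395, FDR = 0.9999, edgeR), and it was −0.20 without DMSO replicate 2 and −0.93 without DMSO replicate 3. With 12 to 26 reads in each of the 6 shallower libraries, these values carry a wide counting error.

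Sstr5, best known from the pituitary, was counted 1, 1 and 0 times in control, 1 and 2 times in DMSO, and 4 and 6 times in ONX-0914. It was the only one of the 5 that did not pass the filter on low counts, so the edgeR fit with this filter did not test it. In the edgeR fit without the filter, ONX-0914 did not pass against control (FDR = 0.66) or against DMSO (FDR = 0.955). A count of 0 in control replicate 3 allows a level of up to 0.826 CPM by the limit of 3 counts, and the exact 95% interval ends at 1.02 CPM. In ONX-0914 replicate 1 the level was 1.01 CPM (exact 95% interval 0.274 to 2.58), and in replicate 2 it was 0.397 CPM (0.146 to 0.863). These intervals overlapped with those of all other libraries, and no fold change is given.

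Apart from Sstr3, the 3 receptors that passed the filter (Sstr1, Sstr2 and Sstr4) were tested in every comparison. None of them passed the edgeR test against control, where 0.114% of all 13152 tested genes passed, or against DMSO, where 0.0456% passed. Sstr2 was the one with an unadjusted p below 0.05 in each of these comparisons, as 18.6% and 14.7% of all genes had, and DESeq2 called none of the 3. Between DMSO and control none of the 4 receptors, Sstr3 included, passed in edgeR or DESeq2 on all 7 libraries. None had an unadjusted p below 0.05 in these fits. Of all tested genes, 0.0152% were called by this edgeR fit and 2.65% had such a p. With only the compared groups fitted, Sstr4 had such a p and did not pass (edgeR). DESeq2 called 0.0186% of all 26822 genes with a count. Both ONX-0914 libraries were below all 3 control libraries for Sstr4, as for 16.3% of all tested genes, and above them for Sstr2, as for 16.9%. For Sstr3, which was chosen on this pattern, the same non-overlap is no further evidence. The median Log2FC against control was 0.17 over Sstr1, Sstr2 and Sstr4 and −0.45 with Sstr3 added, beside 0.05 over all tested genes, so its sign rested on the gene that chose the family. All 4 had a negative Log2FC between DMSO and control, from −0.55 (Sstr1) to −0.09 (Sstr3), with a median of −0.38 beside −0.00315 over all genes. The comparisons of ONX-0914 and of DMSO with control share the control libraries.

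**Figure D2:**
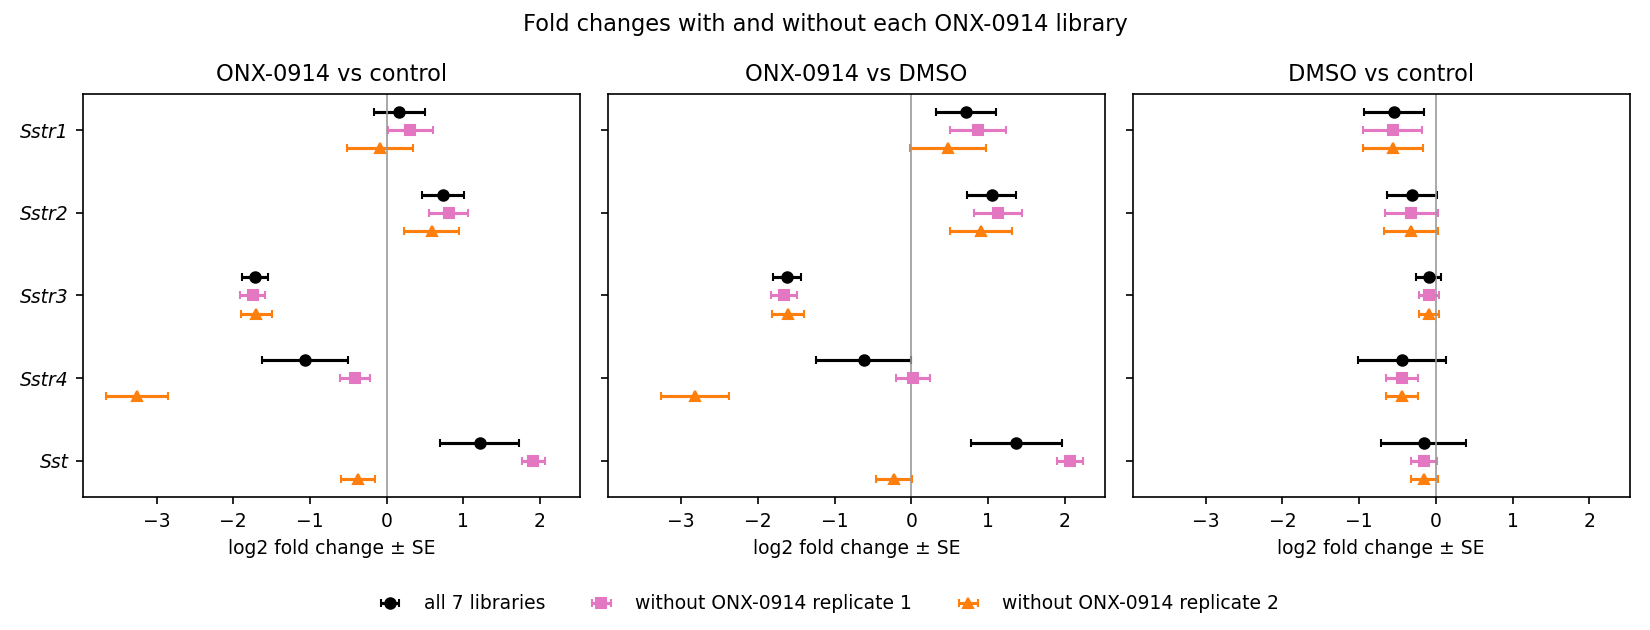
Log2 fold changes with their SE (horizontal axis) of Sstr1 to Sstr4 and Sst in 3 comparisons (panels), from all 7 libraries (circles), without ONX-0914 replicate 1 (squares) and without ONX-0914 replicate 2 (triangles). Against control, Sstr3 ran from −1.75 to −1.70 over the 3 fits, whereas Sstr4 ran from −3.26 to −0.41 and Sst from −0.37 to 1.92.

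The make-up of the family was then compared between libraries. Summed per kilobase of exon length, the 5 receptors reached 33.0 to 34.0 CPM per kilobase in control, 27.0 and 28.2 in DMSO, and 13.3 and 23.6 in ONX-0914 replicates 1 and 2. Sstr3 made up 41.2% ± 0.947 of this sum in control (SD, n = 3), 46.8% ± 2.04 in DMSO (n = 2), and 31.9% and 17.5% in the ONX-0914 libraries. Sstr2 held 8.68% ± 1.46 of the sum in control and 33.5% and 22.1% in ONX-0914 replicates 1 and 2. Its level in CPM was at 1.54 and 1.79 times the control mean there. Sstr4 held a share of 43.9% in replicate 2, where its level was at 0.757 times the control mean, and 10.6% in replicate 1. The sum includes Sstr3, which was chosen for its low level in ONX-0914, and a lower Sstr3 by itself raises the shares of the other receptors. These shares are therefore descriptions.

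Ratios between receptors of the same library do not depend on its depth or scaling. Per exon length, Sstr3 was 5.95, 4.18 and 4.42 times Sstr2 in control, 5.72 and 5.24 times in DMSO, and 0.953 and 0.793 times in ONX-0914. Thus, on this scale, Sstr3 exceeded Sstr2 in each of the 5 libraries without ONX-0914 and not in the ONX-0914 libraries. Per coding length Sstr3 exceeded Sstr2 in all 7 libraries. The ONX-0914 ratios were then 1.72 and 1.43, beside 7.56 to 10.8 in the other libraries. The ratio of Sstr3 to Sstr4 per exon length was 0.994 to 1.03 in control and 1.28 to 1.29 in DMSO, but it was 3.01 in ONX-0914 replicate 1 and 0.399 in replicate 2, on opposite sides of the rest. These ratios include Sstr3 and are descriptions.

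**Figure D3:**
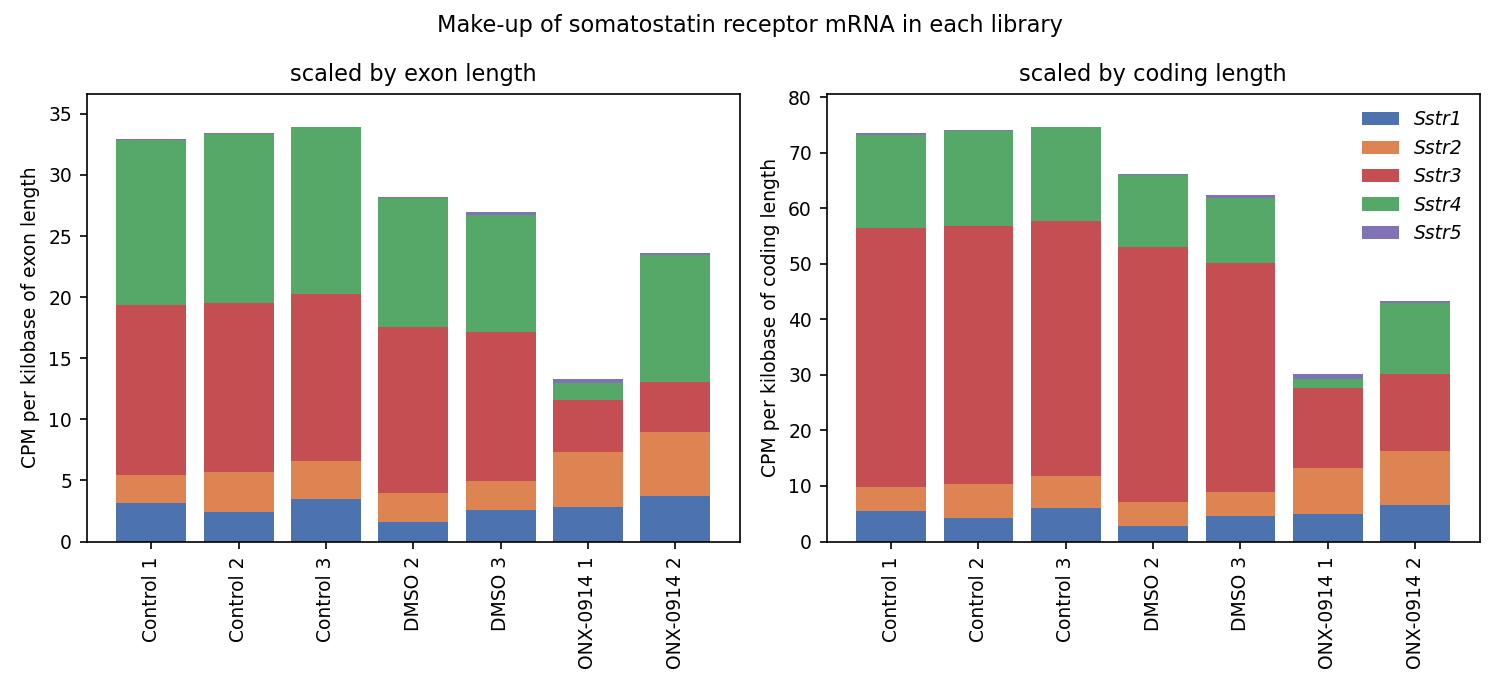
Stacked levels of Sstr1 to Sstr5 in each library, as CPM per kilobase of exon length (left) and of coding length (right), on vertical axes that start at 0. The sum per exon length was 33.0 to 34.0 in control, 27.0 and 28.2 in DMSO and 13.3 and 23.6 in ONX-0914, and the part of Sstr3 was smaller in both ONX-0914 libraries on either scale.

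The ligands were taken next. Sst, which encodes somatostatin, had 87, 117 and 91 reads in control, 100 and 72 in DMSO, and 90 and 1682 in ONX-0914, or 31.0, 31.9 and 25.1 CPM, 26.8 and 25.7 CPM, and 22.7 and 111 CPM. ONX-0914 replicate 1 was below and replicate 2 above all other libraries. The Log2FC against control was 1.21 (SE 0.518, FDR = 0.26, edgeR quasi-likelihood test). It was 1.92 without replicate 1 and −0.37 without replicate 2, each from a fit with a lone ONX-0914 library. Cort, which encodes cortistatin, had 5, 3 and 2 reads in control, 3 and 3 in DMSO, and 2 and 54 in ONX-0914. It failed the filter on low counts, and its level was 3.57 CPM in ONX-0914 replicate 2 and 0.503 to 1.78 CPM elsewhere. Both ligand mRNAs were thus high in ONX-0914 replicate 2, which had the higher neocortical marker sum, and neither was high in replicate 1 with its thalamic and striatal genes. The 6 neocortical markers were split, with 4 above and 1 below every control library in replicate 2, and 2 above and 4 below in replicate 1. The part of tissue composition in the ligand levels was not tested.

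The 16 interneuron genes were examined beside the ligands. Of these, 15 were tested, and 11 had a positive and 4 a negative Log2FC against control, with a median of 0.53. None passed the edgeR test, whereas 5 had an unadjusted p below 0.05, beside 18.6% of all genes, and none passed in DESeq2. The neuropeptide genes Npy and Vip followed Sst, as Npy was at 7.39 ± 2.03 CPM in control (SD, n = 3), 8.05 in ONX-0914 replicate 1 and 44.2 in replicate 2 (Log2FC 1.87, edgeR FDR = 0.17, and 2.54 without replicate 1 and 0.098 without replicate 2). Vip was at 11.2 ± 1.77, 12.1 and 44.5 CPM (Log2FC 1.38, edgeR FDR = 0.19, and 1.97 and 0.097 without these libraries in turn). Calb2, encoding the calcium buffer calretinin, had the opposite pattern with 19.7 ± 8.26, 87.3 and 6.08 CPM (Log2FC 1.21, edgeR FDR = 0.46, and −1.66 and 2.19 in turn). Gad1, the enzyme of GABA synthesis, was at 405 and 254 CPM in the ONX-0914 libraries and at 216 to 245 CPM in control. Gad2 and Slc32a1 of the same list were at 122.0 to 141.5 and 65.7 to 75.2 CPM in control. They were higher in replicate 1, at 317 and 164 CPM, and below every control library in replicate 2, at 106 and 46.7 CPM. Of the 15 tested genes, 2 were above every control library in both ONX-0914 libraries and 2 below, beside 16.9% and 16.3% of all genes.

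The receptor levels were then set beside the hippocampal marker genes of the same libraries. In ONX-0914 replicate 1, all 8 thalamic and all 9 striatal markers exceeded every control library, and 4 of 5 dentate gyrus, 5 of 5 CA1 and 4 of 4 CA3 markers were below every control library. The CA2 list was mixed, with 1 of 4 below and 2 above. Sstr4 at 0.103 times the control mean lay below each of these sums, of which the lowest was the dentate gyrus list at 0.296 times. In ONX-0914 replicate 2, the dentate gyrus, CA1, CA2 and CA3 sums were at 1.04, 1.12, 1.38 and 0.852 times control, and Sstr3 was at 0.300 times and Sstr4 at 0.757 times. Within these sums single markers moved apart, as 3 of 5 dentate gyrus, 2 of 5 CA1 and 2 of 4 CA3 markers were below every control library in replicate 2, and 2, 3 and 1 were above. The CA1 markers Fibcd1 and Pou3f1 were at 68.7 and 87.0 CPM there, beside 122 to 154 and 138 to 170 CPM in control. The sum of 4 markers of ependyma, a cell type with motile cilia, was at 0.747 and 0.557 times control in ONX-0914 replicates 1 and 2. The sum of 3 endothelial markers was at 1.76 and 1.52 times control, with all 3 above every control library in both, as Sstr2 was. In DMSO replicate 3 all 3 were also above every control library, with a sum at 1.27 times control, but Sstr2 was at 0.802 times. The part of these cell types in the receptor levels was not tested.

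**Figure D4:**
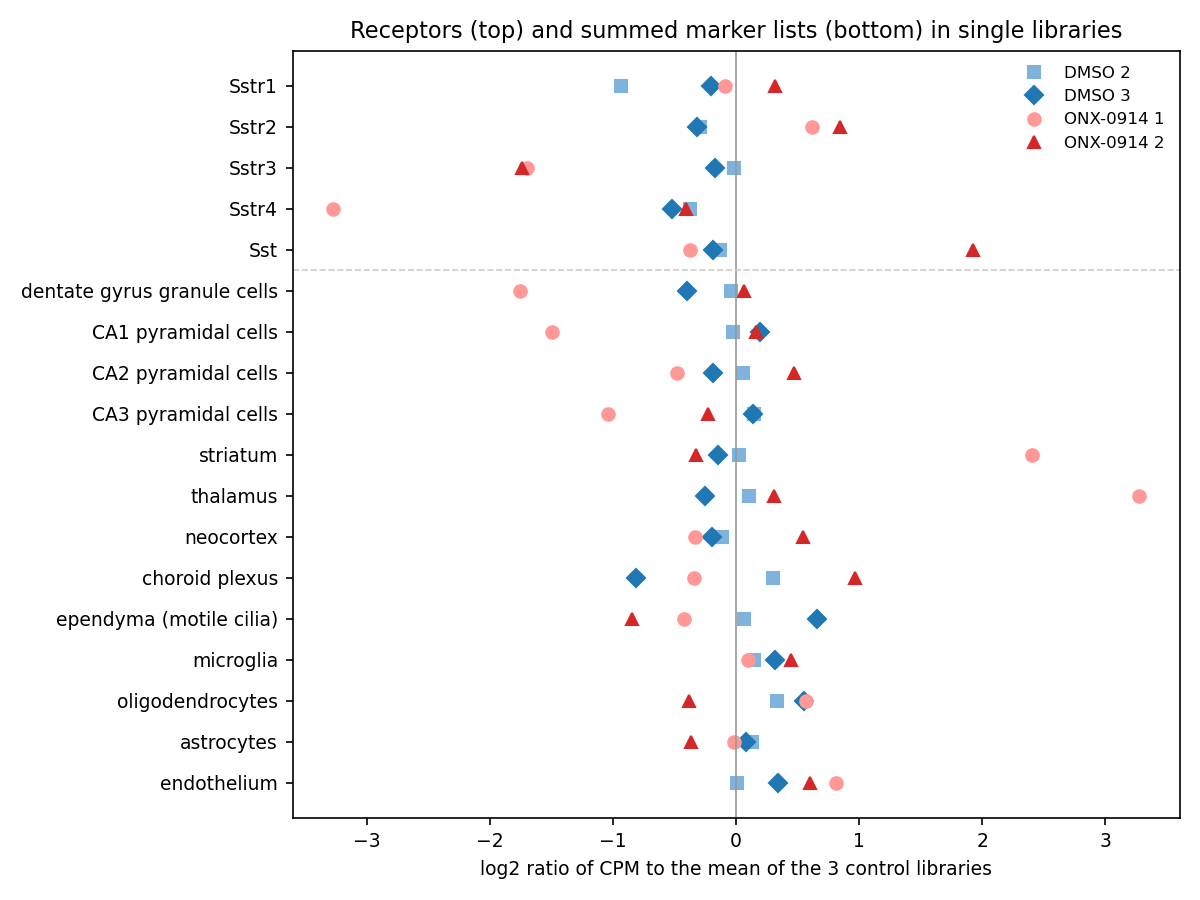
Log2 ratio of each DMSO and ONX-0914 library to the mean of the 3 control libraries (horizontal axis) for 4 receptors and Sst (top) and for the summed CPM of 13 marker lists (bottom). ONX-0914 replicate 1 (circles) was high in striatal and thalamic and low in dentate gyrus, CA1 and CA3 lists. In replicate 2 (triangles) the striatal and thalamic sums were at 0.798 and 1.24 times control. Its dentate gyrus, CA1 and CA3 sums were at 1.045, 1.121 and 0.852 times. The Sstr3 ratios of the ONX-0914 libraries were −1.70 and −1.74, and the part of tissue composition in them was not tested.

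To place the receptors among genes of similar pattern, each was compared with 13151 other tested genes by the root-mean-square difference of centred log2 CPM over the 7 libraries. The nearest gene to Sstr3 was Chgb, encoding the secretory granule protein chromogranin B, with a difference of 0.104. Its level was 2127, 2124 and 2241 CPM in control, 2316 and 2229 CPM in DMSO, and 784 and 641 CPM in ONX-0914. Cebpa, a transcription factor gene (0.152), Gria1, an AMPA receptor subunit (0.159), the sialyltransferase gene St6galnac5 (0.167) and Catip (0.174) followed. All 5 of these were low in both ONX-0914 libraries, which follows from the way they were picked.

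The profile of Sstr4 was closest to those of Trpc4, a cation channel (0.139), the gene model Gm36447 (0.216) and Rgs14, a regulator of G protein signalling and one of the CA2 markers (0.224). Trpc4 was at 42.8 to 50.7 CPM in control and at 6.04 and 36.4 CPM in ONX-0914, and Rgs14 at 58.7 to 64.3 CPM and at 9.82 and 68.9 CPM. Closest to Sstr2 were Klf12 (0.0825), Frmpd3 (0.103) and Pik3cd (0.103), and closest to Sstr1 were Afap1l1 (0.121), Nit1 (0.135) and Nudcd2 (0.142). Among the receptors themselves, Sstr1 and Sstr2 were the most alike (0.386, with 2916 of 13151 genes closer to Sstr1), and Sstr3 and Sstr4 differed by 0.736, with 4528 genes closer to Sstr3.

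The genes through which the receptors act were examined in 7 lists with 102 genes, of which 95 were tested. Against control, none of the 95 passed the edgeR test at an FDR of 0.05, while 25 had an unadjusted p below 0.05, beside 18.6% of all genes. DESeq2 called 6 of the 95 and 1.35% of all 26822 genes fitted. The DESeq2 base holds every gene with a count, whereas the 95 genes are among the 13152 that passed the filter on low counts. The DESeq2 shares of all genes, here and below, are therefore not on a like base. No list had a called gene in DMSO against control or in ONX-0914 against DMSO either, where 2 and 18 genes had an unadjusted p below 0.05 (2.65% and 14.7% of all genes) and DESeq2 called 0 and 5 (0.0186% and 0.854% of all genes).

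Among 31 inhibitory G protein subunits and effectors, 14 had a positive and 17 a negative Log2FC against control, with a median of −0.09. The DESeq2 calls in this list were Gng2, Adcy2 and Kcnj3. Gng2, a gamma subunit that releases from the G protein on activation, was at 322 ± 44.1 CPM in control (SD, n = 3) and at 166 and 137 CPM in ONX-0914 (Log2FC −1.09, SE 0.205, edgeR FDR = 0.074). Adcy2, an adenylyl cyclase, was at 292 ± 3.68 CPM in control and at 149 and 171 CPM in ONX-0914 (Log2FC −0.87, edgeR FDR = 0.074). Kcnj3, which encodes the potassium channel subunit GIRK1, was at 279 ± 22.4 CPM and at 151 and 149 CPM (Log2FC −0.90, edgeR FDR = 0.074). Without ONX-0914 replicate 1 the Log2FC values of Gng2, Adcy2 and Kcnj3 were −1.25, −0.79 and −0.91. Without replicate 2 they were −0.96, −0.98 and −0.89. All control libraries exceeded both ONX-0914 libraries in each of these genes, as in 10 of the 31 genes beside 16.3% of all genes, and the reverse held for 3 genes beside 16.9% of all. Kcnj5 (Log2FC 1.29, edgeR FDR = 0.61) and Adcy8 (Log2FC 0.99, edgeR FDR = 0.24) had 4.78 and 69.7 CPM in ONX-0914 replicate 1 and 0.330 and 26.8 CPM in replicate 2. Without replicate 1 their Log2FC values were −1.03 and 0.16, and without replicate 2 they were 2.72 and 1.54. Gnao1, the main inhibitory alpha subunit of brain, was at 690 to 713 CPM in control and at 623 and 681 CPM in ONX-0914.

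The primary cilium list was included because SSTR3 resides there. Of its 20 genes, all tested, 10 had a positive and 10 a negative Log2FC, with a median of 0.16. An unadjusted p below 0.05 (edgeR) was found for 6 of them, beside 18.6% of all genes. Of these 6, 5 were positive and 1 was negative, and the split by direction over all genes was not counted. Gpr161, a ciliary receptor that restrains hedgehog signalling, was at 112 ± 16.1 CPM in control and at 23.7 and 50.0 CPM in ONX-0914 (Log2FC −1.58, SE 0.309, edgeR FDR = 0.079, and −1.17 without replicate 1 and −2.24 without replicate 2), and DESeq2 called it. Inpp5e, the phosphatase of the ciliary membrane, was at 6.91 ± 0.661 CPM and at 9.82 and 18.4 CPM (Log2FC 1.07, edgeR FDR = 0.16, and 1.39 without replicate 1 and 0.50 without replicate 2). Arl6, which recruits the BBSome, was at 8.13 ± 2.36 CPM and at 8.56 and 21.0 CPM (Log2FC 0.93, edgeR FDR = 0.26, and 1.39 and 0.10 in turn). Adcy3, the adenylyl cyclase that marks neuronal cilia, was at 26.0 to 30.0 CPM in control and at 23.7 and 26.0 CPM in ONX-0914. Mchr1, another ciliary peptide receptor, was at 21.5 to 30.3 CPM in control, 14.5 and 18.6 CPM in DMSO, and 7.55 and 20.7 CPM in ONX-0914 (Log2FC −0.86, edgeR FDR = 0.28, and −0.38 and −1.82 in turn). The receptor gene Htr6, also of this list, had a Log2FC of 0.33, so that the ciliary receptors lay on both sides of 0.

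Of 12 other receptors for peptides that couple to inhibitory G proteins, 7 were tested, 4 with a positive and 3 with a negative Log2FC and a median of 0.28. Npy2r, a presynaptic receptor for neuropeptide Y, was at 49.9 ± 2.77 CPM in control and at 7.05 and 17.3 CPM in ONX-0914 (Log2FC −1.97, SE 0.336, edgeR FDR = 0.073) and was called by DESeq2. Npy5r was at 0.503 and 8.39 CPM (Log2FC 1.74, edgeR FDR = 0.32) and Oprk1, the kappa opioid receptor gene, at 15.6 and 0.991 CPM in ONX-0914 replicates 1 and 2 (Log2FC 1.67, edgeR FDR = 0.42), so their ONX-0914 libraries lay on opposite sides of the control mean. Npy5r had a Log2FC of 2.38 without replicate 1 and −1.59 without replicate 2, and Oprk1 had −1.13 and 2.82.

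Among 14 genes of receptor desensitization and scaffolding, 8 had a positive and 6 a negative Log2FC, with a median of 0.08. Rgs4, a regulator that shortens G protein signals, was at 227 ± 45.7 CPM in control and at 680 and 373 CPM in ONX-0914 (Log2FC 1.21, SE 0.286, edgeR FDR = 0.12) and was called by DESeq2. Gopc (Log2FC −0.64, edgeR FDR = 0.26) and Rgs14 (Log2FC −0.58, edgeR FDR = 0.61) had the next largest values. Without ONX-0914 replicate 1 these were −1.17 and 0.17, without replicate 2 they were −0.24 and −2.63, and Rgs4 had 0.71 and 1.58. The 9 genes of peptide maturation and breakdown had 5 positive and 4 negative values with a median of 0.11, and none was called by edgeR or DESeq2. Ide, which encodes the insulin-degrading enzyme, was at 16.8 to 19.6 CPM in control and at 16.1 and 52.6 CPM in ONX-0914 (Log2FC 0.98, edgeR FDR = 0.26, and 1.56 without replicate 1 and −0.14 without replicate 2). Mme, which encodes the peptidase neprilysin, was at 5.51 to 6.27 CPM and at 15.4 and 7.07 CPM (Log2FC 0.84, edgeR FDR = 0.29, and 0.24 and 1.36 in turn). Scg5, a chaperone of prohormone convertase, was at 863 to 956 CPM and at 867 and 483 CPM (Log2FC −0.43, edgeR FDR = 0.39, and −0.92 and −0.072 in turn).

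**Figure D5:**
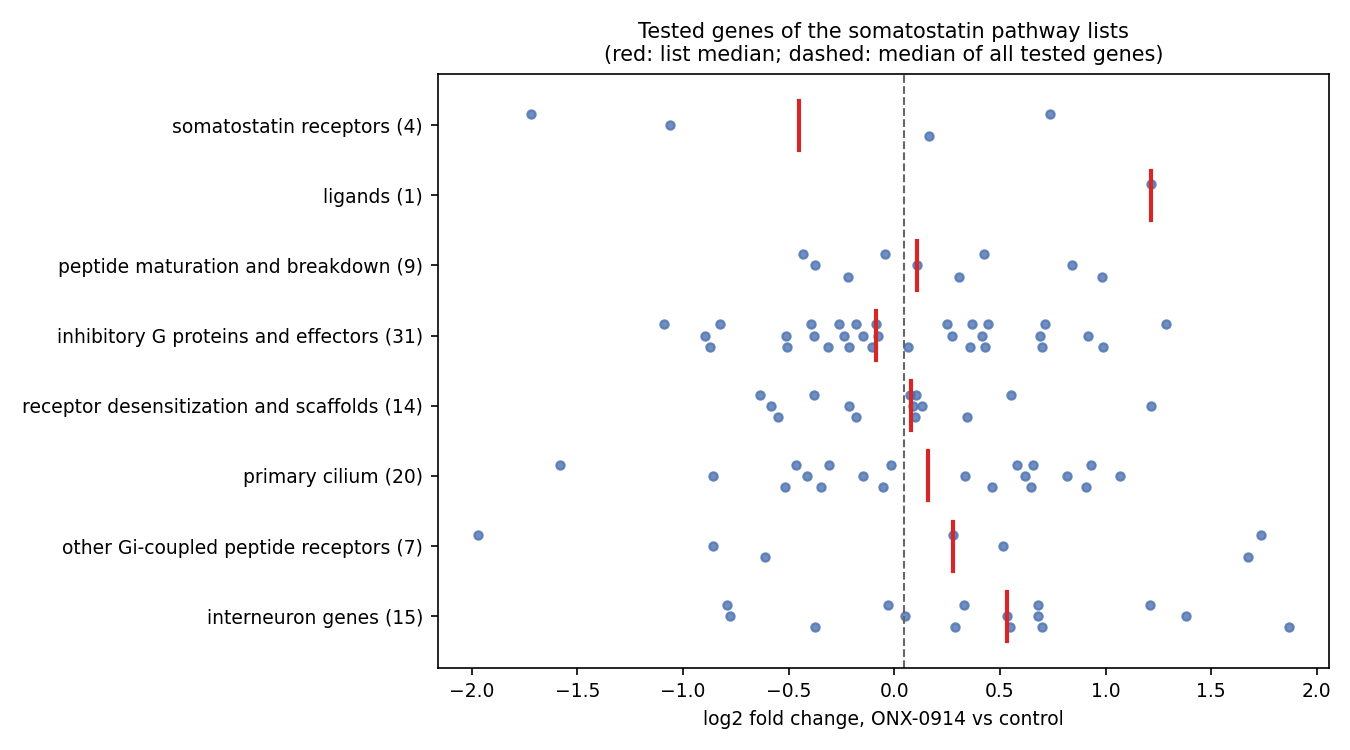
Log2 fold change between ONX-0914 and control (horizontal axis) of each tested gene (points) of the receptor family, the ligands and 6 further lists, with the number tested in brackets, the list median in red and the median of all tested genes as a dashed line. The receptor median was −0.45 with Sstr3, which chose the family, and 0.17 without it. The other medians ran from −0.09 to 1.21 for Sst, the one ligand tested, beside 0.05 for all genes.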

How the data were processed

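Hippocampal RNA of 7 libraries (directional kit, single-end reads) was analysed. For each library, the authors deposited the raw counts of reads on genes, without normalization. The submitters' processing notes name Trimmomatic 0.39, STAR 2.7.3a, featureCounts 2.00 and build GRCm39, whereas the annotation and strand setting are not given in the sources used here. Of the reads listed, 89.6% to 91.4% were on genes, and the rest were left out. Symbols and lengths came from GENCODE M21, in which no exon of another gene overlaps the receptors. Counts were analysed with edgeR 4.0.16 in R 4.3.3 (filterByExpr over 3 groups, TMM, glmQLFit and glmQLFTest with 1 mean per group, Benjamini–Hochberg adjustment over 13152 genes, FDR threshold 0.05, prior count 0.125). The fit was run on counts simulated from the control means with some genes changed. That setting leaves out the divergence between the ONX-0914 libraries, so it does not vouch for the fit there. CPM values use TMM-scaled sizes, and 3 counts correspond to 0.198 to 1.07 CPM. Exact intervals are Clopper–Pearson. Profiles used a prior count of 2. Promoters came from RefSeq. Alternatives were DESeq2 1.42.0, other scalings, filters, fits and prior counts, and leaving out libraries. Members and lists were chosen with earlier results of these data known. Named genes were the receptors, ligands, the 3 largest absolute Log2FC of each list, called genes, the nearest profiles and markers that moved with a receptor. Adcy2, Kcnj3, Gad1, Gad2, Slc32a1, Gnao1, Adcy3, Mchr1 and Htr6 were named after their values were seen. The DMSO and ONX-0914 groups hold 2 libraries each.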

Additional observations from a re-analysis of the deposited data

How the results depend on the processing

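Counting error limits Sstr1, Sstr2 and Sstr5 in the 6 shallower libraries, and the chi-square of counts per degree of freedom was 84.9 between the ONX-0914 libraries and 2.63 to 3.40 between the other libraries of one group. The number of genes called in ONX-0914 against control, in DMSO against control and in ONX-0914 against DMSO was 15, 2 and 6. It was 362, 5 and 229 in DESeq2, 578, 11 and 297 without the filter on low counts, and 3, 141 and 0 with only the compared groups. With at least 10 counts in every library it was 0 in the second and 10 in the last comparison. The last gave 11 with RLE and 3 with total counts without scaling, a scaling that moved the median Log2FC of all genes against control from 0.05 to 0.19. The first gave 343 against all 5 libraries without ONX-0914. Leaving out single libraries gave 0 to 7023, 0 to 146 and 0 to 6313, with 0 in the first comparison without any one control library. Genes of the pathway lists called numbered 0 in each comparison, 6 and 5 in the first and last in DESeq2, 8 and 4 without the filter, 3 in the second with only the compared groups, 6 in the first against all 5 libraries, and 0 to 55, 0 to 3 and 0 to 57 without single libraries. Sstr3 had a Log2FC of −1.57 against control and −1.49 against DMSO with total counts, and −1.71 to −1.55 against DMSO without single libraries. Without single libraries, Sstr1 against control ran from −0.088 to 0.31, Sstr2 from 0.59 to 0.84 against control and from 0.91 to 1.13 against DMSO, and Sstr4 from −3.26 to −0.41 and from −2.82 to 0.026. Sst ran from −0.37 to 1.92 and from −0.22 to 2.07, with the sign reversed without ONX-0914 replicate 2. With the replicate block, 1, 0 and 0 genes were called, and Sstr3 had a Log2FC of −1.74 against control. Same-numbered libraries correlated by −0.0963 to 0.064 in their deviations from the group mean. In a group of 2 libraries these deviations mirror each other, and the labels do not say what the numbers mean. Whether the numbers pair the libraries therefore cannot be decided from them. The other tested values of the receptors kept their direction and side of the threshold. The causes were not tested.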
